A study of Mus musculus with 32 samples.

Results

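Late reperfusion was set against early reperfusion in the mouse striatum after a transient stroke. The comparison used 8 of the 32 arrays of the series, chosen by their labels: 4 arrays of striatum taken 24 h after blood flow returned and 4 taken 2 h after it returned. All mice were labelled Gpx1-/-, strain C57/Bl6, 8 to 10 weeks of age, so the sham mice carried the same deletion as the injured ones, and no wild-type array was listed. The growth protocol, in contrast, names male wild-type animals. A suture closed the middle cerebral artery for 2 h in the reperfusion groups, whose tissue was labelled as infarct striatum. Sham mice had the anaesthetic and the neck incision alone. The 4 striatum arrays of sham mice and the 4 of mice at 8 h of reperfusion are given beside the comparison for orientation, and the cortex arrays at 2 h and 24 h for a test of the difference between regions. The labels do not say whether replicates of a group are separate animals, so p-values measure the spread between these samples, which may be technical.

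Gpx1 encodes glutathione peroxidase 1, which reduces hydrogen peroxide. The striatum lies in the territory of the middle cerebral artery and consists largely of GABAergic projection neurons. When blood flow returns after ischaemia, surviving cells switch on immediate early genes and stress genes first. Reactive astrocytes, activated microglia and macrophages entering from the blood make their own transcripts later, while transcripts of dying neurons are lost. In bulk tissue such as this, fewer cells of a type and less RNA per cell cannot be told apart.

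Against sham, 331 genes (3.49%) were higher and 266 (2.81%) lower at 2 h, 1171 (12.4%) and 1217 (12.8%) at 8 h, and 1396 (14.7%) and 1535 (16.2%) at 24 h, of 9475 tested with limma. These comparisons share the sham arrays with each other and the 2 h and 24 h arrays with the comparison of the times. Levels are log2 of the background-corrected, quantile-normalized probe intensity, and a difference of 1 is a doubling. Of the 25697 probes, 11103 to 11762 were detected on the 2 h arrays and 11217 to 11468 on the 24 h arrays, with median raw signals of 65.3 to 80.4 and 65.4 to 75.9. Arrays of the 2 h group correlated with each other over genes at a Pearson's r of 0.9896 to 0.9941, and those of the 24 h group at 0.9736 to 0.9864. One array stood apart: on the first principal component of the striatum arrays, which held 38.3% of the variance, 24 h replicate 2 lay at 39.97 and the other 24 h arrays at 13.37 to 23.09, against -8.50 to -2.85 at 2 h. The labels hold array codes and do not say what they stand for. If their number is the slide and their letter the place on it, same-numbered arrays of a region share a slide and each group has a fixed place, which leaves place inseparable from group: the 2 cannot be told apart. The word slide is used in this sense. Among the 8 h arrays, replicate 4 had list medians within -0.21 to 0.16 of sham for phagocyte, reactive astrocyte, cytokine and interferon-stimulated genes. On the phagocyte list 8 h replicate 1 was as near sham, at 0.15. The probe for Gpx1 itself read 9.27, 9.30, 9.47 and 9.49 at 2 h and 9.37, 9.93, 9.39 and 9.44 at 24 h, and was detected on every striatum array. Its place relative to the deleted part of the gene is not given in the sources used here, so it checks nothing about the genotype, and its difference did not pass the test (0.15 ± 0.19 SE, adjusted p = 0.649).

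Of 9475 genes tested with limma, 1222 (12.9%) passed an adjusted p of 0.05. At 24 h 666 genes (7.03%) were higher and 556 (5.87%) lower. The large changes went one way: 170 genes (1.79%) were higher by at least 2-fold and 14 (0.148%) were lower by at least 2-fold. The 4 arrays of one time did not overlap the 4 of the other in 1050 of the 1222 called genes, against 1909 (20.1%) of all genes tested. Without 24 h replicate 2, 353 genes were higher and 234 lower, and 103 were higher by at least 2-fold. The count of lower genes was 326 to 334 without 2 h replicate 1, 2 or 3. With the authors' processed values 468 genes were higher and 1207 lower, and the median of all genes was -0.09 in place of -0.03. The 8 h mean lay between the 2 h and the 24 h mean in 80.2% of the genes called higher and 81.8% of those called lower, against 40.6% of all genes tested. The interval between the means is wide in called genes by their selection, so these shares are a description.

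**Figure D1:**
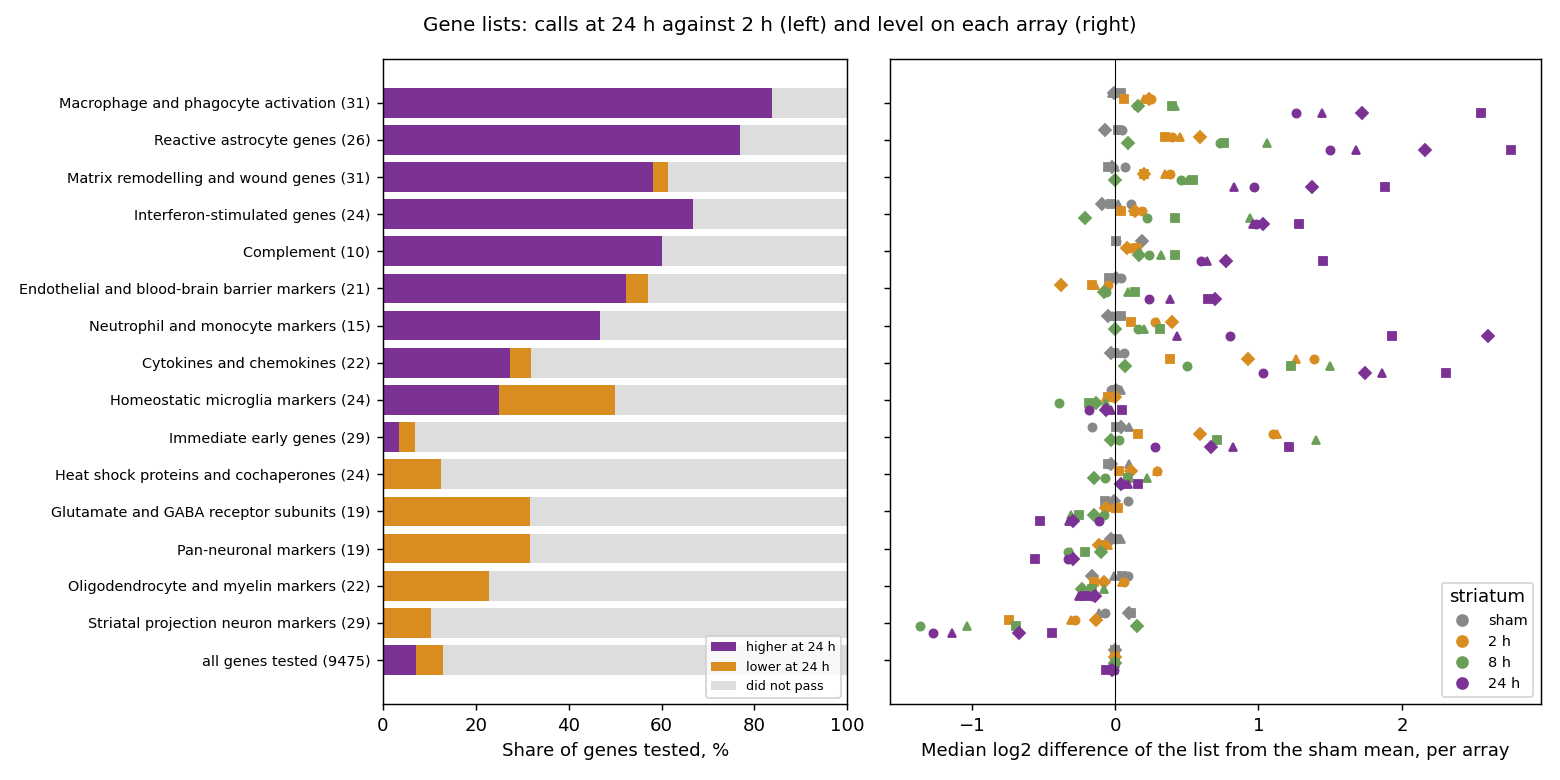
The left panel gives, for each gene list and for all genes tested, the share of measured genes (x axis, %) that were higher, lower or did not pass at 24 h against 2 h, with the number measured in brackets. The right panel gives the median log2 difference of the list from the mean of the sham arrays on each of 16 striatum arrays, in which colour marks the group and shape the replicate as in the gene plots. The phagocyte and reactive astrocyte lists stand to the right of zero at 24 h, with replicate 2 (square) farthest out at 2.55 and 2.76, while the immediate early gene list spans 0.16 to 1.13 at 2 h and 0.28 to 1.21 at 24 h.

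Macrophage and phagocyte genes were higher at 24 h almost throughout. Of 38 listed genes 31 could be measured, of which 26 were higher at 24 h, 0 were lower and 5 did not pass; the median difference was 1.35, against -0.03 for all genes tested. Lgals3, the galectin of activated phagocytes, read 7.62, 7.02, 7.75 and 7.44 at 2 h and 9.83, 11.35, 10.26 and 10.54 at 24 h. The groups did not overlap, and the rise was 8.20-fold (3.04 ± 0.60 SE, adjusted p = 0.00115). It was already in progress at 8 h, when 3 arrays stood at 8.32 to 9.56 and replicate 4 at 7.14. Fcgr4, an activating receptor for IgG, read 5.81, 5.32, 5.48 and 5.68 at 2 h, where it was detected on 1 array, and 8.30, 9.06, 8.38 and 8.52 at 24 h (2.99 ± 0.32 SE, adjusted p = 9.05e-07). Fcgr2b, the inhibitory receptor of the same family, rose alongside it from 6.06 to 6.69 at 2 h to 8.14 to 9.40 at 24 h (2.37 ± 0.27 SE, adjusted p = 1.32e-06). Ms4a6d, a membrane protein of macrophages, was 7.38-fold higher (adjusted p = 3.68e-05), with 24 h arrays at 9.62 to 10.66 and 2 h arrays at 6.80 to 7.74. The lysosomal protein Cd68, named after its values were seen, went from 6.06 to 6.45 at 2 h to 7.70 to 9.0 at 24 h (2.10 ± 0.29 SE, adjusted p = 1.98e-05). Leaving out 24 h replicate 2, 19 of the 31 measured genes passed.

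The genes with the largest rise included several that were at background 2 h after reperfusion. Arg1, the arginine-degrading enzyme of alternatively activated macrophages and mouse neutrophils, was detected on 0 arrays of sham, 2 h and 8 h striatum and on every 24 h array. Its 24 h values were 8.34, 10.20, 6.24 and 9.79, against 4.57 to 4.76 at 2 h, a rise of at least 7.55-fold (adjusted p = 0.000252). Bounds of this kind set each undetected value to the lowest detected signal of its array. Chil3, a chitinase-like protein of myeloid cells, read 6.69, 8.60, 6.15 and 8.71 at 24 h and 4.63 to 5.42 at 2 h, at least 3.51-fold higher (adjusted p = 0.00426). Lilrb4a, an inhibitory receptor of myeloid cells, was at least 2.67-fold higher (adjusted p = 0.000406), and its 24 h arrays lay at 6.43 to 8.00.

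In the list of neutrophil and monocyte markers 7 of 15 measured genes (28 listed) were higher at 24 h, 0 lower, and 8 did not pass, with a median of 0.70; 4 were higher without 24 h replicate 2. Arg1, Lilrb4a, Chil3 and Clec4d led this list, and Ly6c1, which endothelial cells also carry, was among the 7. The call for Clec4d, a C-type lectin of myeloid cells undetected at 2 h (at least 2.35-fold higher, adjusted p = 0.0339), was lost without 2 h replicate 1, 2 or 3 or without 24 h replicate 2 or 4, with adjusted p up to 0.17. The abundant neutrophil transcripts S100a8 and S100a9, chosen after their values were seen, did not pass. S100a8 stood at 5.58 to 6.76 in sham, already at 9.44, 7.41, 9.39 and 9.39 at 2 h, and at 8.66, 10.84, 8.75 and 11.08 at 24 h (0.93 ± 0.92 SE, adjusted p = 0.543). The groups overlapped and the 24 h arrays split into a lower and a higher pair. Red-cell transcripts moved with this split. The median of the 3 measured haemoglobin and erythroid markers (10 listed), taken against sham, was 0.01, 2.62, -0.23 and 3.12 on the 24 h arrays, and that of the neutrophil and monocyte list was 0.80, 1.93, 0.43 and 2.60. At 2 h the haemoglobin values were 2.67, 0.76, 2.80 and 2.05. The alpha-globin gene Hba-a1 read 13.07, 11.35, 13.08 and 12.59 at 2 h and 10.66, 13.32, 8.55 and 13.53 at 24 h, against 7.37 to 10.97 in sham. Its difference did not pass (-1.01 ± 1.04 SE, adjusted p = 0.566). The part that blood in the tissue plays in the neutrophil and monocyte values was not tested.

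**Figure D2:**
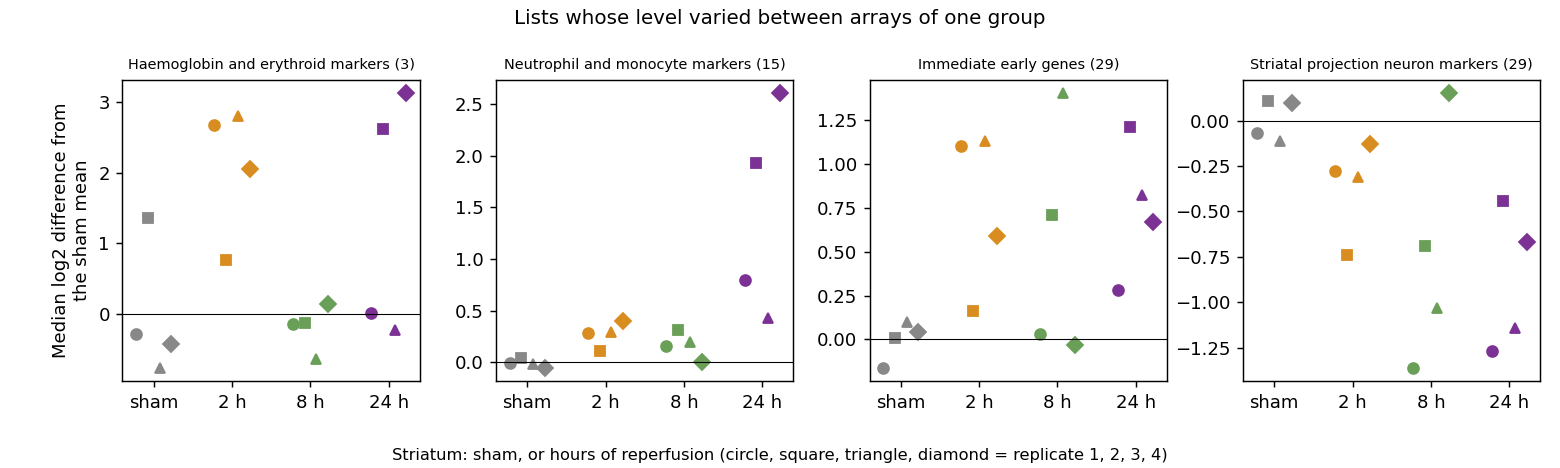
Median log2 difference from the sham mean (y axis) of 4 gene lists on each striatum array, by group (x axis), with the number of measured genes in brackets; shapes mark the replicate. At 24 h, replicates 2 and 4 (square and diamond) are high for both the haemoglobin markers (2.62 and 3.12) and the neutrophil and monocyte markers (1.93 and 2.60), and the striatal projection neuron markers are less reduced on them (-0.44 and -0.67) than on replicates 1 and 3 (-1.27 and -1.14).

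Reactive astrocyte genes were mostly higher as well. Of 33 listed, 26 were measured, 20 were higher at 24 h, 0 lower and 6 did not pass, and the median was 1.49. Serpina3n, a secreted protease inhibitor that marks reactive astrocytes, read 8.82, 9.06, 9.02 and 9.65 at 2 h, 9.26 to 10.49 at 8 h and 12.31, 13.14, 12.12 and 12.27 at 24 h. Every 24 h array lay far above every 2 h array, and the rise was 9.99-fold (3.32 ± 0.39 SE, adjusted p = 2.04e-06). Tgm1, a transglutaminase, was detected on 0 arrays at 2 h and on all 4 at 24 h (7.60, 8.88, 7.69 and 8.42), at least 5.35-fold higher (adjusted p = 1.32e-06). Ptx3, a secreted pentraxin, was likewise detected at 24 h alone of these times and was at least 2.65-fold higher (adjusted p = 0.00181). Lcn2, which binds iron-carrying siderophores, rose from 8.39 to 9.07 to 10.12 to 11.49 (2.26 ± 0.50 SE, adjusted p = 0.00316), and its 8 h arrays, at 9.78 to 10.52, had already reached the lower 24 h values. Gfap, the astrocyte intermediate filament, came later: its 8 h arrays lay at 7.92 to 8.82, within the sham range of 8.15 to 8.80 or near it, and its 24 h arrays at 9.25, 10.22, 9.49 and 9.86. Its rise over 2 h was 2.34-fold (1.23 ± 0.27 SE, adjusted p = 0.00325). Of 23 measured homeostatic astrocyte markers 2 were higher and 1 lower, against 7.03% and 5.87% of all genes tested. The lower gene, the gap junction protein Gja1, fell from 12.60 to 12.75 at 2 h to 12.13 to 12.46 at 24 h (-0.36 ± 0.09 SE, adjusted p = 0.00747). Without 24 h replicate 2, 12 of the 26 reactive astrocyte genes passed.

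Genes that remodel matrix and mark wound repair followed, with 18 of 31 measured genes (46 listed) higher, 1 lower and a median of 0.92. Mmp3, or stromelysin-1, which degrades matrix proteins, was detected on 0 arrays at sham and 2 h. It read 7.25, 9.57, 7.18 and 8.12 at 24 h, at least 4.94-fold above 2 h (adjusted p = 0.00011). Tgfbi, an extracellular adhesion protein, read 7.61, 7.15, 7.52 and 7.49 at 2 h and 8.90, 10.78, 9.26 and 9.90 at 24 h (2.27 ± 0.39 SE, adjusted p = 0.00029). Spp1, osteopontin, rose 4.01-fold (adjusted p = 0.00708), and without 24 h replicate 2 its adjusted p was 0.0507. Lgals1, a galectin of wound repair, rose 3.51-fold (adjusted p = 1.74e-05). The exception was Timp3, a matrix-bound inhibitor of metalloproteinases, which fell from 10.67 to 10.91 at 2 h to 10.04 to 10.38 at 24 h (-0.65 ± 0.10 SE, adjusted p = 0.000119). Its secreted relative Timp1 had risen early: sham arrays read 4.75 to 5.04, 2 h arrays 8.53 to 9.23, and 24 h arrays 9.81, 11.61, 9.82 and 11.18 (1.80 ± 0.45 SE against 2 h, adjusted p = 0.00902). Both were chosen after their values were seen. The list had 11 calls upwards without 24 h replicate 2.

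**Figure D3:**
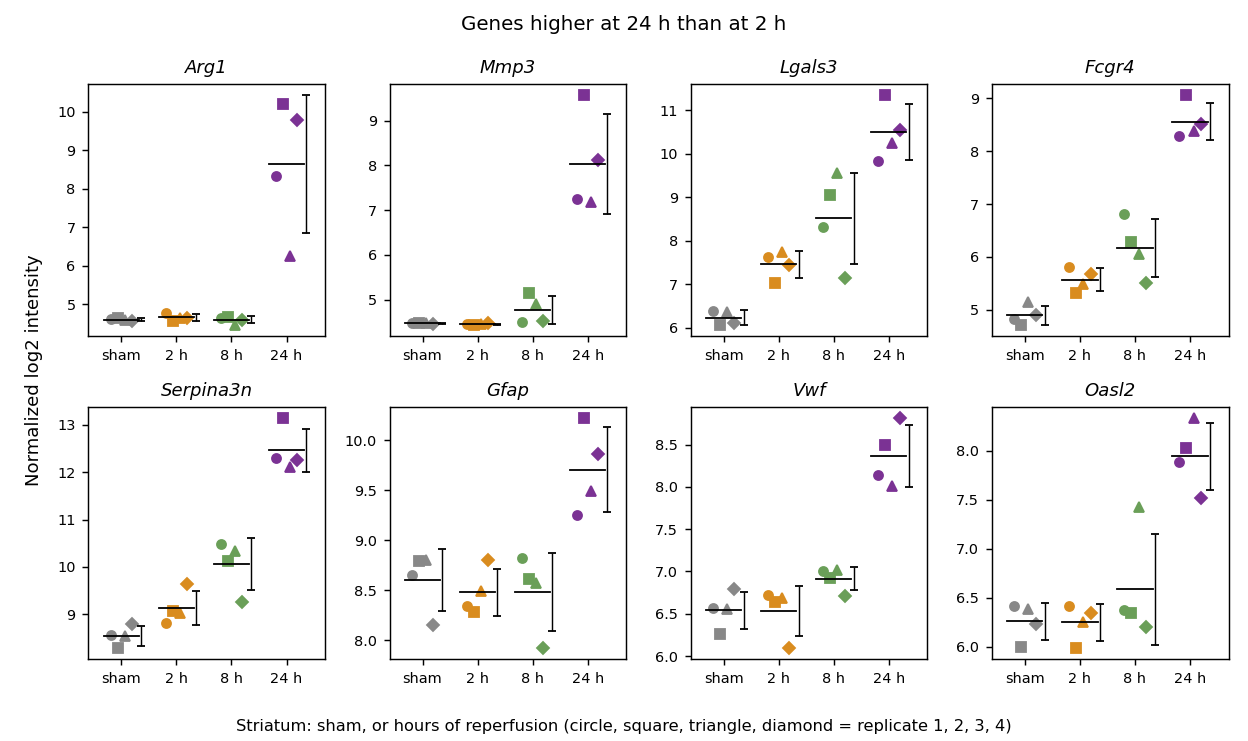
Normalized log2 intensity (y axis) of 8 genes that were higher at 24 h than at 2 h, on each striatum array by group (x axis). Lines are means and bars SD over 4 arrays; shapes mark the replicate. For every gene shown the 24 h arrays lie above all 2 h arrays, and Arg1 has the widest 24 h spread, from 6.24 to 10.20.

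Markers of endothelium and of the blood-brain barrier were higher at 24 h in 11 of 21 measured genes (30 listed), lower in 1, with a median of 0.77. This list also had 11 calls upwards without 24 h replicate 2. Vwf, the von Willebrand factor of endothelial cells, read 6.72, 6.64, 6.68 and 6.10 at 2 h and 8.15, 8.50, 8.01 and 8.81 at 24 h, with no overlap (1.83 ± 0.20 SE, adjusted p = 9.05e-07). Sox18, a transcription factor of endothelium, was detected on 0 arrays at 2 h, where it read 5.30 to 5.63, and lay at 7.06 to 7.84 at 24 h, at least 3.02-fold higher (adjusted p = 2.04e-06). Its sham arrays lay at 5.46 to 6.53, and the 2 h level was not shown to differ from them (-0.66, adjusted p = 0.0671). Ly6a, a surface protein of endothelial cells in mouse brain, had 2 h values of 9.74 to 10.27 and sham values of 10.26 to 10.72, a difference that did not pass (adjusted p = 0.161). It reached 11.25 to 12.06 at 24 h (1.72 ± 0.25 SE against 2 h, adjusted p = 2.71e-05). Emcn, the endothelial sialomucin endomucin, rose 2.52-fold (adjusted p = 0.00123). Among the adhesion molecules 4 of 10 measured genes were higher and 1 lower. Icam2, a constitutive endothelial ligand of leukocyte integrins, rose 2.60-fold (adjusted p = 0.000117). The cytokine-inducible Icam1 and Vcam1 did not pass, at -0.26 ± 0.30 and -0.10 ± 0.14 SE (adjusted p = 0.615 and 0.695), and Icam1 stood above sham at both times, by 1.32 and 1.06 (adjusted p = 0.0103 and 0.00859). The 9 measured pericyte and smooth muscle markers had 0 higher and 1 lower, where 5.87% of all genes tested were lower. The lower gene was Vtn, or vitronectin (-0.58 ± 0.14 SE, adjusted p = 0.00663), whose call was lost without 24 h replicate 2 (adjusted p = 0.0533).

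Interferon-stimulated genes were near sham level 2 h after reperfusion and higher at 24 h. Of 24 measured (35 listed), 16 were higher than at 2 h, 0 lower and 8 did not pass, with a median of 0.95. The list's median against sham was 0.04 to 0.19 on the 2 h arrays and 0.96 to 1.28 on the 24 h arrays, so the 24 h arrays differed little among themselves on it. Oasl2, an interferon-induced relative of the oligoadenylate synthetases, read 6.42, 5.99, 6.26 and 6.35 at 2 h, close to its sham range of 6.00 to 6.42, and 7.89, 8.03, 8.33 and 7.52 at 24 h (1.69 ± 0.35 SE, adjusted p = 0.00163). At 8 h, replicate 3 alone had moved, to 7.43. Ifitm3, which restricts virus entry, rose 3.15-fold (adjusted p = 0.000781), and Usp18, which removes the ubiquitin-like ISG15 from proteins, rose 2.90-fold (adjusted p = 0.0127). Cxcl10, a chemokine that attracts T cells, was 2.79-fold higher (adjusted p = 0.0377), but its call was lost when any of 6 arrays was left out, with adjusted p up to 0.114. Without 24 h replicate 2, 9 interferon-stimulated genes passed.

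Antigen presentation genes moved less: 5 of 14 measured were higher, 0 lower, with a median of 0.27, and 3 were higher and 1 lower without 24 h replicate 2. B2m, the light chain of MHC class I, read 11.08, 10.93, 11.01 and 11.11 at 2 h and 11.56, 12.09, 11.58 and 11.71 at 24 h (0.70 ± 0.16 SE, adjusted p = 0.00426). Tap2, a subunit of the peptide transporter, rose 1.53-fold (adjusted p = 0.00541). H2-T23, a nonclassical class I chain, rose 1.45-fold (adjusted p = 0.00423), and its further probe gave 0.39 (adjusted p = 0.12). The class II genes H2-Aa, H2-Ab1 and H2-Eb1 did not pass, with differences of -0.05, -0.20 and -0.55. In the complement list 6 of 10 measured genes were higher and 0 lower, and 6 passed without 24 h replicate 2 as well. C4b, a classical pathway component, read 7.50, 7.43, 7.48 and 7.32 at 2 h and 8.69, 9.05, 8.65 and 8.61 at 24 h (1.32 ± 0.15 SE, adjusted p = 2.04e-06). C3, the central component, rose 2.18-fold (adjusted p = 0.00349), and C1qa and C1qb, chains of the first component, rose 1.87-fold and 1.99-fold (adjusted p = 0.00108 and 0.000512).

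The promoters of these interferon and antigen presentation genes were searched for the core of the interferon-stimulated response element (GAAA, any 2 bases, GAAA), on both strands of the 250 bases before each gene start (RefSeq, build GRCm38.p6). The GAS half-site pair (TTCNNNGAA), the CRE (TGACGTCA) and the AP-1 motif (TGANTCA) were searched in the same way, and matches of different motifs can share bases. Of the 19 measured interferon-stimulated genes with a window, 10 (52.6%) held it, as did 2 of 11 antigen presentation genes (18.2%), against 240 of 7523 tested genes with a window (3.19%) and 978 of all 32851 windows (2.98%). In the interferon list the AP-1 motif was held by 7 genes (36.8%, against 5.72% of tested genes), the GAS pair by 6 (31.6%, against 7.26%) and the CRE by 0 (against 3.08%). In the antigen presentation list each of these 3 motifs was held by 1 gene. A gene with several windows was counted once if any held the motif. The 3 named genes with a match are shown, 5′ to 3′ on the gene's strand, with the match in capitals. They are Cxcl10 (chr5:92348890-92349139, minus strand), B2m (chr2:122147437-122147686, plus strand) and H2-T23 (chr17:36032702-36032951, minus strand).
Cxcl10: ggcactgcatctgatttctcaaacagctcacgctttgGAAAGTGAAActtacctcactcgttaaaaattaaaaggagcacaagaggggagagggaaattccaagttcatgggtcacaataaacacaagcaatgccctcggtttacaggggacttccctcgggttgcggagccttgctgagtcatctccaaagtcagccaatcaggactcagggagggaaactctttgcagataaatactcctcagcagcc
B2m: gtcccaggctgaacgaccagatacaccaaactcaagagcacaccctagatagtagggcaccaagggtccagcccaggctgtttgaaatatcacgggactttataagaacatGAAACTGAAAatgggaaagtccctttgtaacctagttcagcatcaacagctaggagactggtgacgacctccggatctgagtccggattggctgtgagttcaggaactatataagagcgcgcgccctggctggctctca
H2-T23: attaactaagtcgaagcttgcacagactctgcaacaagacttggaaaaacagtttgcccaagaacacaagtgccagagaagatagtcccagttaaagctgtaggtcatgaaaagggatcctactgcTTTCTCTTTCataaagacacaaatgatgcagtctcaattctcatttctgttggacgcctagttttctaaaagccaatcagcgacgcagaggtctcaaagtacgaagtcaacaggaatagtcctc
The match begins 213 bases before the gene start in Cxcl10, 139 in B2m and 124 in H2-T23. It is a match of letters and not a shown binding site. For comparison, the same core was found in 3 of 26 immediate early genes (11.5%), 4 of 23 reactive astrocyte genes (17.4%) and 3 of 23 phagocyte genes with a window.

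Microglial genes split. Of 24 measured homeostatic microglia markers (25 listed), 6 were higher at 24 h and 6 lower, with a median of 0.225. Without 24 h replicate 2, 3 were higher and 4 lower. Siglech, a lectin of resident microglia, read 7.01, 7.34, 7.25 and 7.17 at 2 h and 5.98, 5.75, 6.04 and 6.01 at 24 h, a 2.37-fold fall with no overlap (-1.25 ± 0.17 SE, adjusted p = 2.04e-05). It was below sham at 24 h (-1.05, adjusted p = 5.86e-05) and the difference from sham at 2 h did not pass (0.19, adjusted p = 0.532). Selplg and Tmem119, microglial surface proteins named after their values were seen, also fell (-0.77 and -0.46, adjusted p = 0.00206 and 0.0409). In the other direction, P2ry6, a nucleotide receptor that triggers phagocytosis, rose from 6.94 to 7.38 to 8.19 to 9.18 (1.46 ± 0.25 SE, adjusted p = 0.000251). The fractalkine receptor Cx3cr1 had its low point between these times, with 8 h arrays at 6.64 to 7.78 against 7.92 to 8.45 at 2 h and 8.70 to 9.47 at 24 h (0.93 ± 0.21 SE for 24 h against 2 h, adjusted p = 0.00388). Aif1, or Iba1, rose 1.73-fold (adjusted p = 0.011), and the call was lost without 24 h replicate 2 (adjusted p = 0.0639).

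Of 22 measured cytokines and chemokines (33 listed), 8 were above sham at 2 h and 16 at 24 h. In the comparison of the times 6 were higher at 24 h, 1 lower and 15 did not pass, with a median of 0.86. Their median against sham was 1.39, 0.38, 1.26 and 0.93 on the 2 h arrays and 1.03, 2.31, 1.86 and 1.74 on the 24 h arrays. Il11, a cytokine of the interleukin 6 family, was detected on 1 array at 2 h (5.33, 5.08, 5.51 and 6.12) and on all 4 at 24 h (6.93, 9.63, 7.53 and 9.23), a 7.06-fold rise (2.82 ± 0.60 SE, adjusted p = 0.00244). Ccl12, a monocyte chemoattractant, was already above sham at 2 h (2.66, adjusted p = 0.0145) and rose further, from 7.58 to 9.07 to 10.14 to 10.60 (2.32 ± 0.65 SE, adjusted p = 0.0174). That call was lost without 2 h replicate 2 or 3 or 24 h replicate 2, with adjusted p up to 0.0548. Ccl5, a chemoattractant of T cells and monocytes, was at least 2.02-fold higher (adjusted p = 0.000384). Il1b, the main inflammatory interleukin 1, was above sham at both times by 1.79 and 1.80 (adjusted p = 0.0248 and 0.00513) and the difference between them did not pass (0.01 ± 0.48 SE, adjusted p = 0.994). The list had 2 calls upwards without 24 h replicate 2. In the STAT3 and SOCS group, Stat3, the transcription factor downstream of interleukin 6, rose from 9.09 to 9.39 to 9.80 to 10.61 (0.99 ± 0.21 SE, adjusted p = 0.00224). Its feedback inhibitor Socs3, chosen after its values were seen, was above sham by 3.71 at 2 h and 4.54 at 24 h (adjusted p = 0.000171 and 8.62e-07), and the step between them did not pass (0.83 ± 0.53 SE, adjusted p = 0.313). Of the 14 measured genes in that group 4 were higher and 1 lower, against 7.03% and 5.87% of all genes tested. In the NF-kB and innate signalling group 1 of 12 measured genes was higher and 0 lower, near the 7.03% higher of all genes tested. The higher gene was Myd88, a toll-like receptor adaptor (1.03 ± 0.23 SE, adjusted p = 0.00388).

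Several named genes stood above sham at 2 h and fell by 24 h. Depp1, a FOXO target that affects autophagy, read 5.25, 5.13, 5.43 and 4.96 in sham, 7.63, 7.42, 7.52 and 7.41 at 2 h, 7.25 to 8.06 at 8 h, and 5.49, 5.36, 4.95 and 6.70 at 24 h. At 24 h replicate 4 alone stayed well above the sham range, and the fall from 2 h was 3.65-fold (-1.87 ± 0.33 SE, adjusted p = 0.000355). Its rise over sham was 2.30 at 2 h and 2.34 at 8 h (adjusted p = 0.000171 and 2.66e-05), and 0.43 at 24 h did not pass (adjusted p = 0.34). Fosb, an immediate early gene of the AP-1 family, read 8.07, 6.75, 8.16 and 7.55 at 2 h and 4.76, 6.19, 5.90 and 5.76 at 24 h (-1.98 ± 0.45 SE, adjusted p = 0.00392). Its 2 h level was above sham by 1.33, which did not pass (adjusted p = 0.0741), so it is given here for its fall alone. Ccl19, a chemokine for CCR7-bearing cells, was above sham at 2 h by 1.23 (adjusted p = 0.00022) and undetected at 24 h, at least 1.52-fold below 2 h (adjusted p = 0.000192). Cish, a STAT5 feedback inhibitor, stood above sham at 2 h by 1.01 (adjusted p = 0.00587) and fell (-0.68 ± 0.21 SE, adjusted p = 0.0314), a call lost when any of 6 arrays was left out, with adjusted p up to 0.101. Trp53inp1, a p53-induced stress gene, was above sham at 2 h by 0.60 (adjusted p = 0.0107) and fell 1.73-fold by the probe used (adjusted p = 0.000339), while its further probe gave -0.08 (adjusted p = 0.84).

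Other immediate early genes did not follow Fosb. Of 29 measured (41 listed), 1 was lower at 24 h, 1 was higher and 27 did not pass. The median was 0.02. Between same-numbered arrays, which were not taken as pairs, it was -0.72, 1.04, -0.45 and 0.11. Fos read 10.29, 8.63, 10.51 and 9.54 at 2 h and 8.67, 10.24, 9.81 and 9.46 at 24 h, so the groups overlapped (-0.20 ± 0.58 SE, adjusted p = 0.862). Junb, its partner in AP-1, was above sham by 1.20 at 2 h and by 1.00 at 24 h (adjusted p = 0.0251 and 0.0182), with a step of -0.20 ± 0.32 SE between them (adjusted p = 0.728). Both were chosen after their values were seen. On this list 2 h replicate 2 was the lowest of its group and 24 h replicate 2 the highest of its group, at 0.16 and 1.21 against sham. Klf2, a flow-responsive transcription factor of endothelium, was the gene that rose (1.10 ± 0.28 SE, adjusted p = 0.00834), with 2 h arrays at 6.19 to 7.65 and 24 h arrays at 8.05 to 8.22.

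Most heat shock, glucocorticoid and hypoxia genes did not pass. Of all genes tested, 7.03% were called higher and 5.87% lower. In the heat shock list 3 of 24 measured genes were lower and 0 higher, namely the cochaperones Stip1 and Fkbp4 and the chaperone Hspa4l, with falls of 0.39 to 0.44. Of 8 fits with 1 array left out, the Stip1 call was lost in 2, that of Hspa4l in 7 and that of Fkbp4 in 8 (adjusted p up to 0.151). Of 11 processing alternatives, 8 lost the Hspa4l call and 3 that of Fkbp4. Hspa1a, the inducible Hsp70, had sham levels of 6.11 to 6.48, then 9.99, 6.86, 10.0 and 9.64 at 2 h and 6.78, 9.89, 6.85 and 8.58 at 24 h. Its fall of 1.10 ± 0.97 SE did not pass (adjusted p = 0.484). Replicate 2 was low at 2 h, and the 24 h arrays split, with 9.89 and 8.58 above 6.78 and 6.85. The small heat shock protein Hspb1 did not overlap between the times, at 7.39 to 8.54 and 8.92 to 11.13, and missed the threshold (1.65 ± 0.58 SE, adjusted p = 0.0589). Hspa1a and Hspb1 were chosen after their values were seen. Of 21 measured glucocorticoid-induced genes, 3 were higher and 2 lower, but 1 and 6 with the authors' processed values. The higher genes were Lcn2, given above, Sult1a1 (0.71 ± 0.23 SE, adjusted p = 0.0413) and Angptl4 (0.69 ± 0.23 SE, adjusted p = 0.0438). For Sult1a1 and Angptl4 the groups overlapped, and each call was lost when any of 6 arrays was left out (adjusted p up to 0.134). Tsc22d3, or Gilz, which carries out anti-inflammatory glucocorticoid effects, read 11.61, 11.69, 11.66 and 11.66 at 2 h and 10.86, 10.83, 10.66 and 11.01 at 24 h (-0.82 ± 0.12 SE, adjusted p = 3.11e-05), and the 24 h level was also below sham (-0.51, adjusted p = 0.00167). In the hypoxia and glycolysis list 3 of 26 measured genes were lower and 1 higher. Ndrg1, a hypoxia-induced gene that oligodendrocytes also express, fell from 10.09 to 10.46 to 9.15 to 9.64 (-0.81 ± 0.13 SE, adjusted p = 0.000117). P4ha1, a collagen prolyl hydroxylase, fell 1.90-fold (adjusted p = 0.00572), and Hk2, the inducible hexokinase, rose 1.64-fold (adjusted p = 0.00505). Of the NRF2 targets 5 of 21 measured were higher and 0 lower, led by Hmox1, the haem-degrading enzyme, at 3.88-fold (adjusted p = 0.0202). The count was 1 without 24 h replicate 2, and the call for Hmox1 was then lost, as it was without 2 h replicate 1 or 3 (adjusted p up to 0.0871).

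**Figure D4:**
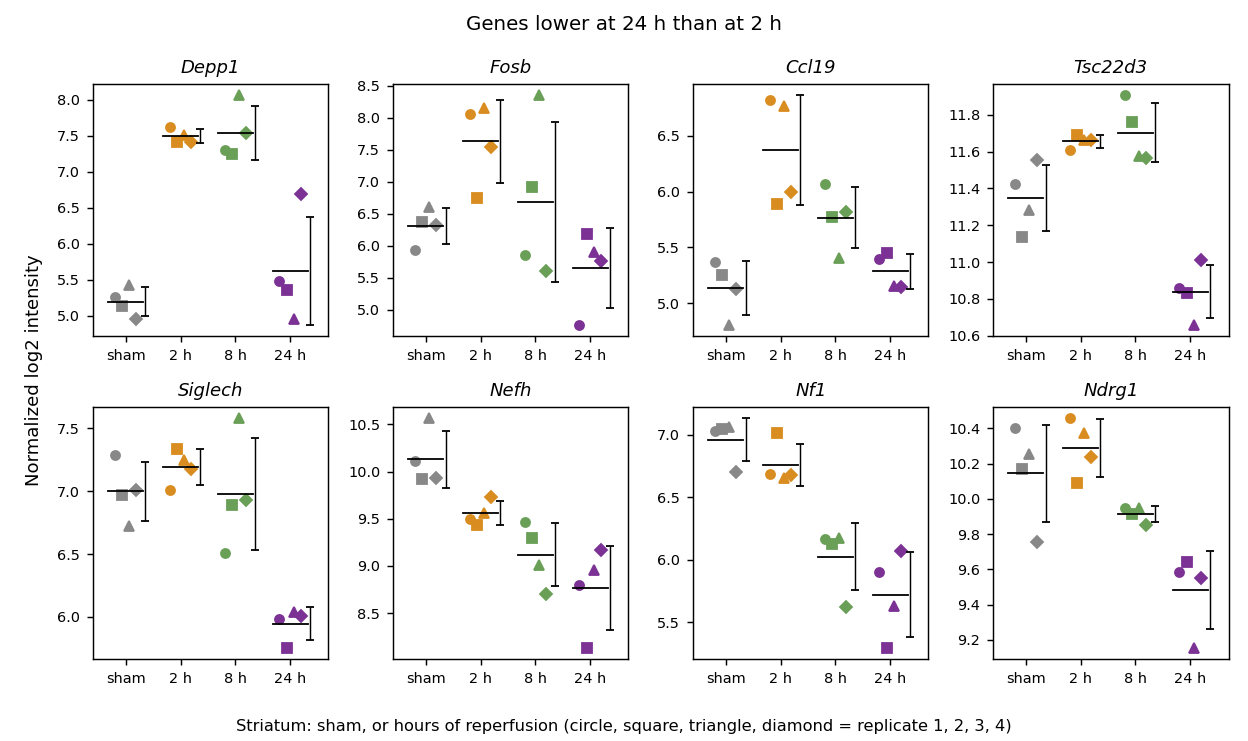
Normalized log2 intensity (y axis) of 8 genes that were lower at 24 h than at 2 h, on each striatum array by group (x axis). Lines are means and bars SD over 4 arrays; shapes mark the replicate. Depp1 and Ccl19 stand above sham at 2 h and return toward it by 24 h, while Nefh and Nf1 are at or below sham at 2 h and lower still at 24 h.

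Neuronal transcripts gave calls in 1 direction, downwards, where 5.87% of all genes tested were lower. Of 19 measured pan-neuronal markers 6 were lower at 24 h and 0 higher, with a median of -0.27. Nefh, the heavy neurofilament chain, read 9.50, 9.43, 9.56 and 9.73 at 2 h, already under the sham range of 9.92 to 10.56, and 8.80, 8.13, 8.96 and 9.17 at 24 h (-0.79 ± 0.19 SE, adjusted p = 0.00496). Mapt, the microtubule protein tau, fell from 11.45 to 11.69 to 10.95 to 11.27 (-0.48 ± 0.11 SE, adjusted p = 0.00377). Its further probes gave -0.60, -0.36 and -0.14 (adjusted p = 0.00198, 0.209 and 0.679). Glutamate and GABA receptor subunits gave 6 lower of 19 measured and 0 higher. The kainate receptor subunit Grik1 and the metabotropic receptor Grm7 fell by 0.62 each (adjusted p = 0.00225 and 0.00103), from 2 h levels that were above sham for Grm7 (0.45, adjusted p = 0.0264). Among presynaptic genes 4 of 24 were lower and 0 higher, with falls of 0.33 to 0.61. The calcium sensor Doc2b led them (adjusted p = 0.00772), and its further probe gave -0.33 (adjusted p = 0.241). Each of these 3 lists had 2 calls downwards without 24 h replicate 2. In the list of voltage-gated ion channels 2 of 32 measured genes were lower and 0 higher, near the share of all genes tested. Without 24 h replicate 2, 0 of them were lower. Nf1, neurofibromin, a brake on Ras signalling, fell 2.05-fold, from 6.69, 7.01, 6.65 and 6.68 to 5.90, 5.29, 5.63 and 6.07 (adjusted p = 0.00103), and its 8 h arrays stood at 5.62 to 6.17. Nxph4, a neurexophilin secreted by neurons, fell 2.16-fold (adjusted p = 0.000169) and was detected on 2 arrays at 24 h.

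Most markers of striatal projection neurons did not pass. Of 29 measured (37 listed), 3 were lower, against 5.87% of all genes tested. In this list 0 were higher and 26 did not pass, although the median was -0.56. The count of lower genes was 2 to 10 over the processing alternatives and 1 to 3 with 1 array left out. The list's median difference between same-numbered arrays was -0.90, 0.48, -0.73 and -0.50, although the shared number was not taken as a pairing. Against sham, the list's median was -0.28, -0.74, -0.31 and -0.13 on the 2 h arrays and -1.27, -0.44, -1.14 and -0.67 on the 24 h arrays. Ptpn5, or STEP, a striatum-enriched phosphatase, read 7.62, 7.83, 7.91 and 7.97 at 2 h and 6.74, 7.26, 7.04 and 7.02 at 24 h (-0.81 ± 0.17 SE, adjusted p = 0.00226). Pde10a, the phosphodiesterase of these neurons, fell 1.81-fold (adjusted p = 0.0207), a call lost without 2 h replicate 4 or 24 h replicate 1 (adjusted p up to 0.0911). Syndig1l was below sham at 2 h by 1.29 (adjusted p = 0.00764) and fell further (-0.85 ± 0.28 SE, adjusted p = 0.0417), and leaving out any of 6 arrays lost the call (adjusted p up to 0.13). The dopamine receptor Drd1, chosen after its values were seen, read 8.79, 7.52, 8.90 and 9.03 at 2 h and 6.94, 8.87, 7.16 and 7.91 at 24 h. These groups overlapped because replicate 2 was lowest at 2 h and highest at 24 h, and the fall did not pass (-0.84 ± 0.44 SE, adjusted p = 0.212). Its 24 h level was below sham (-1.63, adjusted p = 0.00589). Among interneuron markers, the choline transporter Slc5a7 fell from 6.91 to 7.22 to 5.58 to 6.84 (-0.81 ± 0.20 SE, adjusted p = 0.00627). Slc18a3, which loads acetylcholine into vesicles, was at least 1.11-fold lower (adjusted p = 0.00293). They were 2 of 3 lower genes among 16 measured interneuron markers, where 0 were higher. Chat, which makes acetylcholine, did not pass (-0.49 ± 0.26 SE, adjusted p = 0.22). Oligodendrocyte markers gave 5 lower of 22 measured and 0 higher, and 2 lower without 24 h replicate 2. Ugt8a, which makes the myelin lipid galactocerebroside, fell from 9.60 to 10.19 to 9.04 to 9.09 (-0.85 ± 0.15 SE, adjusted p = 0.00029), and had reached 8.82 to 9.09 by 8 h.

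The 3 lowest differences among called genes whose groups do not overlap were those of Tph2, Slc6a4 and Ucn. Tph2 and Slc6a4 mark serotonergic neurons, whose cell bodies lie outside the striatum. Tph2, the brain enzyme that makes serotonin, read 9.99, 9.77, 9.97 and 9.67 at 2 h and 5.11, 7.18, 9.22 and 7.27 at 24 h (-2.65 ± 0.49 SE, adjusted p = 0.000547). Slc6a4, the serotonin transporter, read 8.03, 8.13, 8.13 and 7.63 at 2 h and 4.69, 5.16, 7.22 and 5.45 at 24 h (-2.35 ± 0.38 SE, adjusted p = 0.000151). Every 24 h array lay below every 2 h array, and 24 h replicate 3 was the least reduced for both genes. At 24 h Tph2 was detected on 3 arrays and Slc6a4 on 1, so the sizes of these falls rest in part on values at background. Sham arrays varied too: Tph2 read 9.68, 7.60, 9.99 and 7.99 and Slc6a4 7.87, 5.84, 8.15 and 6.20, with replicates 2 and 4 low. The 2 h levels were not above sham by the test (1.03 and 0.97, adjusted p = 0.192 and 0.121), while the 24 h levels were below it (-1.62 and -1.38, adjusted p = 0.012 and 0.00693). Slc17a8, the vesicular transporter VGLUT3 of serotonergic and some cholinergic neurons, fell 2.41-fold (adjusted p = 3.68e-05), and the homeobox gene Hoxb5 fell 2.21-fold (adjusted p = 0.00316). Each was detected on 2 arrays at 24 h. Gchfr, a regulator of tetrahydrobiopterin synthesis, was undetected at 24 h and at least 1.14-fold lower (adjusted p = 0.000169). With no filter on detection, another probe of Gchfr, which fails that filter, had the higher mean and was used. It gave -0.20 (adjusted p = 0.6).

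**Figure D5:**
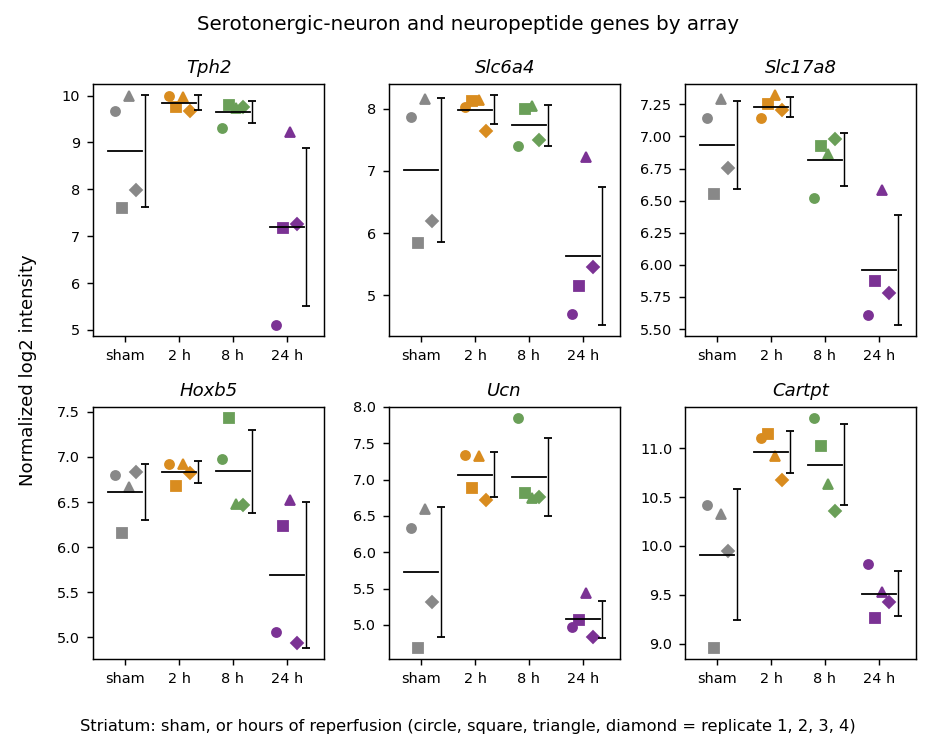
Normalized log2 intensity (y axis) of 6 serotonergic-neuron and neuropeptide genes on each striatum array by group (x axis). Lines are means and bars SD over 4 arrays; shapes mark the replicate. Tph2 and Slc6a4 are low on sham replicates 2 and 4 as well as on the 24 h arrays, where replicate 3 is least reduced at 9.22 and 7.22.

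Urocortin, a stress peptide encoded by Ucn and made by midbrain neurons, had sham levels of 6.33, 4.68, 6.60 and 5.31 and 2 h levels of 7.34, 6.88, 7.33 and 6.72. At 24 h it was undetected on all 4 arrays, at least 2.47-fold below 2 h (adjusted p = 1.28e-05). Its sham values were low on the same replicates, 2 and 4, as those of Tph2. The peptide precursor Cartpt was above sham at 2 h (1.05, adjusted p = 0.0229) and fell 2.74-fold, from 11.10, 11.15, 10.92 and 10.68 to 9.81, 9.26, 9.53 and 9.43 (adjusted p = 0.000754). Its further probe gave -1.41 (adjusted p = 0.000531). Further genes of monoamine neurons, looked at after these values were seen, were mixed. Maob, which degrades monoamines, and Slc18a2, which loads them into vesicles, fell by 0.54 and 0.59 (adjusted p = 0.0109 and 0.0441). Th, the enzyme of dopamine synthesis, and Slc6a3, the dopamine transporter, differed by -0.01 ± 0.25 and 0.15 ± 0.14 SE (adjusted p = 0.98 and 0.529). Also without a pass were the synthesis genes Ddc (0.12, adjusted p = 0.737) and Gch1 (-0.16, adjusted p = 0.754) and the serotonin receptor Htr1a (-0.22, adjusted p = 0.535). The same held for the developmental transcription factors Gata2 (0.34, adjusted p = 0.226), Gata3 (-0.25, adjusted p = 0.303), En1 (-0.32, adjusted p = 0.194) and En2 (-0.48, adjusted p = 0.377). Of the 12 measured thalamic and midbrain markers 2 were lower, Tph2 and Slc6a4, and 0 higher, or 2 higher without 24 h replicate 2. The 15 choroid plexus and ependyma markers and the 16 cortical projection neuron markers gave 0 calls in limma in either direction. The part of the dissection in these values was not tested.

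The same contrast in cortex shares no array with that in striatum, and the difference between them was tested. It passed for 8 of 9475 genes (0.0844%), with 1098 at an unadjusted p under 0.05. The change from 2 h to 24 h was lower in striatum than in cortex in 6 of them and higher in 2. These counts moved with the processing, to 79 and 6 with the authors' processed values, 83 and 93 with array weights, 11 and 8 with the slide as a block, and 57 and 39 with same-numbered cortex and striatum arrays taken as 1 animal. Ucn passed (adjusted p = 0.0141, but 0.0553 with 75th percentile scaling), and since it was undetected in striatum at 24 h and on every cortex array of both times, the size of its difference is not given. Ddc, which makes dopamine and serotonin from their precursors, rose in cortex from 6.49 ± 0.23 to 8.14 ± 0.39 (SD, n = 4) and stood at 9.52 ± 0.07 and 9.63 ± 0.19 in striatum (difference -1.54 ± 0.27 SE, adjusted p = 0.0122). Mdh1b, a malate dehydrogenase relative, fell in striatum by 0.45 and rose in cortex by 0.77 (adjusted p of the difference 0.00936). Tom1, an endosomal trafficking adaptor, likewise fell by 0.35 in striatum and rose by 0.55 in cortex (adjusted p of the difference 0.00936). The inflammatory, astrocyte and endothelial genes named above are not among the 8. For Tph2 and Slc6a4 the difference between regions did not pass (adjusted p = 0.0976 and 0.0723), and Slc6a4 was undetected on the cortex arrays of both times.

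Housekeeping groups gave small differences. Of all genes tested, 7.03% were higher and 5.87% lower. Cytosolic ribosomal protein genes had 7 of 35 measured members higher and 0 lower, with a median of 0.21, and proteasome subunits had 5 of 27 higher and 0 lower, with a median of 0.17. The counts of higher genes were 3 and 2 without 24 h replicate 2. With the authors' processed values the proteasome list had 1 higher and 1 lower and a median of 0.04. Rpl18, of the large ribosomal subunit, rose 1.53-fold (adjusted p = 0.0033), and Psmb2, of the proteasome core, 1.38-fold (adjusted p = 0.00258). The 31 measured respiratory chain and ATP synthase subunits gave 0 calls in limma, with a median of -0.003. Of the peroxide and superoxide enzymes, the group closest to the deleted gene, 2 of 18 measured were higher and 0 lower. The shares of all genes tested were 7.03% and 5.87%. The higher genes were Txn1, thioredoxin, at 1.58-fold (adjusted p = 0.0223) and the peroxiredoxin Prdx1 at 1.35-fold (adjusted p = 0.0125). Both calls were lost without 24 h replicate 2, with adjusted p up to 0.0979 over the arrays left out.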

How the data were processed

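RNA was hybridised to 32 Illumina MouseRef-8 V2 arrays. The deposited intensity of each probe is its mean bead signal, exported from BeadStudio without normalization per the file headers, and the lowest value was 27.2. The deposited detection column is a fraction, taken here as 1 minus the detection p-value. The authors' processed table holds ratios on a linear scale whose denominator is the 4-array sham average of that region, as found by comparing it with the deposited intensities, and was used as an alternative. In the series-wide tables the replicate numbers run in mirrored order (all 32 arrays) and were turned back by matching values to the labelled profiles. The other 192 columns of the profiles were not used.

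Background was corrected with limma's normexp fit on detection p-values (offset 16), followed by quantile normalization over 32 arrays and log2. A probe stayed if its detection p was under 0.01 on 4 or more arrays (12758 probes), and of several probes for a gene the one of highest mean was used (9475 genes). Probes were named through RefSeq by accession (23872), symbol (731) or synonym (709), and 385 kept the name in the file. One limma model over 8 groups gave the differences, with Benjamini-Hochberg adjustment over all genes, a two-sided threshold of 0.05, and every adjusted p in the text from it. Where all arrays of a group were undetected, the bound used the higher of each array's value and its lowest detected level (5.57 to 5.97).

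Named genes are the 14 highest and 14 lowest called genes whose groups do not overlap, up to 4 called members per list by size, up to 4 region differences each way, and Gpx1. Cd68, S100a8, S100a9, Hba-a1, Ly6c1, Timp1, Timp3, Icam1, Vcam1, H2-Aa, H2-Ab1, H2-Eb1, Selplg, Tmem119, Il1b, Socs3, Fos, Junb, Hspa1a, Hspb1, Drd1, Chat, Th, Slc6a3, Bax, Sesn1 and Zmat3 fall outside this rule and were chosen after their values were seen. The comparison and the gene lists (27 of pathways and functions, 16 of cell markers) were chosen with earlier results of these data known. Tools were R 4.3.3, limma 3.58.1, data.table version 1.17.8, Python 3.11.15, pandas 2.3.3, numpy 2.4.6 and matplotlib 3.10.9. The code was tested on simulated data. The number of arrays limits the precision.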

Additional observations from a re-analysis of the deposited data

Results flagged for a closer look

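In 16 of 276 sets of 4 arrays, 1 array lay far from the other 3 by Dixon's test; chance gives about 1 in 20. At 2 h the highest array stood apart for Lcn2 (9.07, others 8.39 to 8.5), Lgals1 (8.29, others 7.76 to 7.85), Myd88 (8.44, others 8.13 to 8.17) and Nf1 (7.01, others 6.65 to 6.69). The lowest 2 h array stood apart for Vwf (6.10, others 6.64 to 6.72), Clec4d (4.84, others 5.53 to 5.62), Thy1 (12.87, others 13.01 to 13.04), Slc32a1 (12.31, others 12.50 to 12.54) and Nefm (10.42, others 10.68 to 10.73). At 24 h the highest array stood apart for Prdx1 (13.01, others 12.52 to 12.55), Psmd13 (11.50, others 11.22 to 11.27), Gpx1 (9.93, others 9.37 to 9.44), Ing3 (7.46, others 7.26 to 7.28), Pdia6 (7.49, others 7.24 to 7.28) and Cacng3 (7.98, others 7.11 to 7.26). The lowest 24 h array stood apart for Syn1 (11.21, others 11.75 to 11.84).

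The change from 2 h to 24 h differed between striatum and cortex, by the interaction term in limma, for 8 genes. The difference, striatum minus cortex, was -2.0 for Ucn (undetected in cortex and in striatum at 24 h, so not a measured size), -1.54 for Ddc, -1.22 for Mdh1b, -0.90 for Tom1, -0.78 for the chromatin reader Ing3, -0.61 for the endosomal GTPase Rab5a, 0.71 for the kinase Mapk11 and 0.87 for Prag1. Adjusted p ran from 0.00936 for Tom1 and Mdh1b to 0.0453 for Mapk11. The Mapk11 call was lost in 11 of 16 fits with 1 array left out (adjusted p up to 0.127), with trend and robust variance (0.0504) and with all detected probes (0.0659). The Ucn call was lost with 75th percentile scaling (0.0553).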

How the results depend on the processing

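The main counts were 666 higher and 556 lower genes, 170 and 14 of them by at least 2-fold, and 2 and 6 region differences. Leaving out 1 array gave 353 to 707 higher, 234 to 592 lower, 103 to 206 and 13 to 19 by at least 2-fold, and 1 to 4 and 6 to 12 region differences; 24 h replicate 2 gave 353, 234 and 103. With the slide as a replicate block, 740 genes were higher and 635 lower, and the region differences were 8 and 11. Same-numbered 2 h and 24 h arrays deviated together at r of -0.059, -0.273, 0.091 and 0.117 over genes (other pairs -0.146 to 0.275), so the shared number was not taken as a pairing. Without background correction 93 and 6 genes passed 2-fold. With the authors' processed values 1207 genes were lower, 91 and 7 passed 2-fold, and the region differences were 6 and 79; lower calls went from 6 to 12 of the pan-neuronal, 5 to 10 of the oligodendrocyte, 4 to 9 of the presynaptic and 3 to 9 of the hypoxia lists. Region differences higher in striatum numbered 4 with 75th percentile scaling, without background correction or with no detection filter, and 1 with trend and robust variance or with all detected probes. With array weights the region differences were 93 and 83, and with same-numbered cortex and striatum arrays as 1 animal 39 and 57. The cause of these shifts was not tested. Some list medians near 0 changed sign: immediate early genes from 0.022 to -0.173 and thalamic and midbrain markers from -0.103 to 0.084 without 24 h replicate 2, and unfolded protein response genes from 0.079 to -0.045 with the authors' processed values. The balance of calls turned too, from more higher to more lower genes with the authors' values, and from more lower to more higher region differences with array weights. No called gene that is named changed direction. Over named genes and processing alternatives, 1372 values kept their side of the threshold and 63 no longer passed; over single arrays left out these numbers were 883 and 165.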

Other observations

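Of 30 measured p53 targets and apoptosis genes, 4 were higher at 24 h, 3 lower and 23 did not pass, against 7.03% higher and 5.87% lower of all genes tested. Casp1, the protease that matures interleukin 1 beta, read 6.41, 6.48, 6.05 and 6.49 at 2 h and 7.25, 8.31, 8.00 and 7.75 at 24 h, with no overlap (1.47 ± 0.20 SE, adjusted p = 1.36e-05). Casp8, the initiator caspase of death receptors, was detected on 0 arrays at 2 h and was at least 1.77-fold higher (adjusted p = 0.000916). Bax, which opens the outer mitochondrial membrane, rose 1.52-fold (adjusted p = 0.00666). Tnfrsf1a, a receptor of tumour necrosis factor, rose 1.98-fold (adjusted p = 0.00848), a call lost without 24 h replicate 2 (adjusted p = 0.0502). Beside Trp53inp1, the p53 targets Sesn1 and Zmat3 fell by 0.52 and 0.42 (adjusted p = 0.000807 and 0.019).

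In the unfolded protein and integrated stress response list 2 of 24 measured genes were lower and 1 higher, against 5.87% and 7.03% of all genes tested. The higher gene was Slc7a11, also on the NRF2 list (0.70 ± 0.21 SE, adjusted p = 0.0266). Its call was lost without 24 h replicate 2 or 2 h replicate 3 or 4 (adjusted p up to 0.126). The chaperone Hsp90b1 fell from 11.30 to 11.64 at 2 h to 10.84 to 11.12 at 24 h (-0.52 ± 0.12 SE, adjusted p = 0.00316), and the disulfide isomerase Pdia6 fell 1.37-fold (adjusted p = 0.0131). In the cell cycle and DNA replication list 4 of 15 measured genes were higher and 0 lower. Ccnd1, or cyclin D1, read 9.38 to 9.73 at 2 h and 9.94 to 10.75 at 24 h (0.72 ± 0.17 SE, adjusted p = 0.00425). The replication genes Mcm4, Mcm5 and Tyms rose by 0.34 to 0.61, and these 3 calls were lost without 24 h replicate 2 (adjusted p = 0.0829 to 0.205). Ghrh, the hypothalamic releasing hormone of growth hormone, was above sham at 2 h by 0.55 (adjusted p = 0.0361) and fell 1.73-fold (adjusted p = 0.00125). It and Cartpt were the 2 lower genes among 10 measured hypothalamic neuropeptide markers, where 0 were higher.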
